A study of Mus musculus with 17 samples.

Results

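The N-terminal fragment of mouse p65/RelA, residues 1-361, was compared with wild-type p65 (WT) in transfected DA1-3b leukaemia cells, over all genes on the array. The arrays were chosen by source name, 3 labelled 1-361 and 4 labelled WT, which are 7 of the 17 arrays of the series. Arrays of cells given the D361E mutant (4 arrays), the C-terminal fragment 362-549 (3 arrays) or both fragments together (1-361+362-549, 3 arrays) entered the same model, so that they shared in its estimate of the spread, and served for tests of where 1-361 stood apart. DA1-3b is a mouse leukaemia cell line positive for Bcr-Abl, the fusion tyrosine kinase of chronic myeloid leukaemia, so both groups carried Bcr-Abl. The labels give the strain as mouse C3H eOuJ and DMEM with foetal calf serum as the medium for both groups. The WT cells received a plasmid for full-length p65 and the 1-361 cells a plasmid for the N-terminal part, on top of the cells' own Rela gene. Empty-plasmid samples, which the treatment protocol names, were not analysed here, so each difference is one between 2 forms of p65. The labels do not name the promoter of the plasmids, and they do not say whether a line was 1 clone or whether the arrays of a group came from separate cultures. P-values therefore rest only on how far arrays scatter within the 5 groups, which may be technical scatter, and with 3 and 4 arrays the precision is limited.

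NF-kB transcription factors are dimers, and RelA is their main activating subunit. Its N-terminal Rel homology domain binds DNA, other subunits and the IkB inhibitors, and its C-terminal region carries the transactivation domains that switch target genes on. Among the direct targets are genes that shut the pathway down again, such as Nfkbia, which encodes the inhibitor IkB alpha, and Tnfaip3, which encodes the deubiquitinase A20. The fragment 1-361 ends at the residue that the non-cleavable D361E mutant changes, so it keeps the Rel homology domain and lacks the C-terminal transactivation domains.

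Each sample was hybridised to a 1-colour Agilent array. A level is the log2 processed signal of a gene's probe minus the array's own 75th percentile, so that 0 marks that percentile, and levels of different probes are not compared with each other. Calls required a limma p under 0.05 after Benjamini-Hochberg adjustment over all genes tested. Between 49.4% and 52.2% of spots were well above background on the 7 arrays, and 0 spots that were not controls were saturated. Across genes, which are not independent replicates, pairs of arrays correlated at 0.986 to 0.989 within 1-361, at 0.973 to 0.995 within WT and at 0.975 to 0.989 between them. Of 13 marker genes of the line and of myeloid progenitors, 8 were well above background on every array of both groups. Cd33, Cd34, Kit and Mpo, the defining genes of early and granulocytic progenitors, were not well above background on any of the 7.

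In cells with the 1-361 fragment, some genes at background in WT were well above background, among them Nsd1 (by 1 of its 2 probes), Col4a5 and Ogn. The neighbouring stefin A genes and the globin genes also rose. Falls measured on every array included those of Itih3, Nupr1 and Lpgat1 and of the NF-kB feedback genes Tnfaip3 and Nfkbia, while the IgE receptor gene Fcer1a and Map3k19 lay at background with 1-361. Of 15254 genes tested, 109 were called (0.715%), 61 higher in 1-361 (0.4%) and 48 lower (0.315%). Of the called genes 93 had a fitted difference of at least 1 on the log2 scale and 42 of at least 2, which for genes at background in 1 group is not a measured size, while the median size of the difference over all genes was 0.18. The 1-361 and WT arrays did not overlap for 1592 genes (10.4%), and an unadjusted p under 0.05 was found for 1175, where 762.7 are expected without any difference. That number depended on the fit, from 532 with the slide as a block to 1926 with the round of the title number as a block. It was 566 with normexp background correction and 771 without 1-361 replicate 1. With the slide block and with normexp it thus lay below 762.7. Without 1-361 replicate 1 the count of called genes was 62, and with the slide as a block it was 39, all 39 among the 109. In a fit of the 7 arrays alone 85 were called, 57 higher and 28 lower. With normexp background correction 31 were called, and without scaling 44.2% of the calls were higher, against 56%.

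Nsd1, a histone H3 lysine 36 methyltransferase gene, stood at 3.43, 3.84 and 3.95 on the 1-361 arrays and at -7.06, -7.21, -6.67 and -6.45 on the WT arrays. The groups lay far apart, and the gene was not well above background on any WT array, so only a bound can be given: it was at least 446-fold higher in 1-361 (limma adjusted p = 2.27e-10). The probe lies at chr13:55419594-55419653 (mm9). A second Nsd1 probe, with coordinates 55335377 to 55340095, was not well above background on any of the 7 arrays, with means of -7.05 in 1-361 and -7.34 in WT. The 2 probes of this gene therefore disagreed. Nsd1 was the 1 called by limma of 30 measured histone lysine methyltransferase genes, 3 of which had an unadjusted p under 0.05, and the list's median was 0.04, as over all genes.

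Col4a5, a basement membrane collagen chain gene on chromosome X (138123547 to 138123606), stood at -0.89, -0.84 and -0.71 with 1-361 and at -7.45, -7.43, -6.98 and -6.95 with WT. The WT arrays lay at background, and the gene was at least 19.0-fold higher in 1-361 (adjusted p = 2.27e-10). Ogn, a small leucine-rich proteoglycan gene, stood at -2.48, -2.18 and -2.21 with 1-361 and was not well above background on any WT array, where values ran from -7.04 to -6.11, so it was at least 6.83-fold higher (3.11e-07). The same held for Smco4 and Plaat5, a phospholipid acyltransferase gene, at least 3.24-fold and 2.67-fold higher, and for the scavenger receptor gene Cd163l1, at least 6.33-fold. Rab11fip5, a gene of endosome recycling, rose by 4.16 ± 0.60 (SE; 0.00168), with 2 of 4 WT arrays well above background. The tyrosine kinase gene Fer was at least 2.49-fold higher (0.000812), and its second probe was dim on all WT arrays and well above background on 1 of 3 arrays of 1-361. Normexp correction ended the calls of Col4a5, Ogn, Smco4, Plaat5, Cd163l1, Rab11fip5 and Fer, and the slide block that of Rab11fip5 (0.102).

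**Figure D1:**
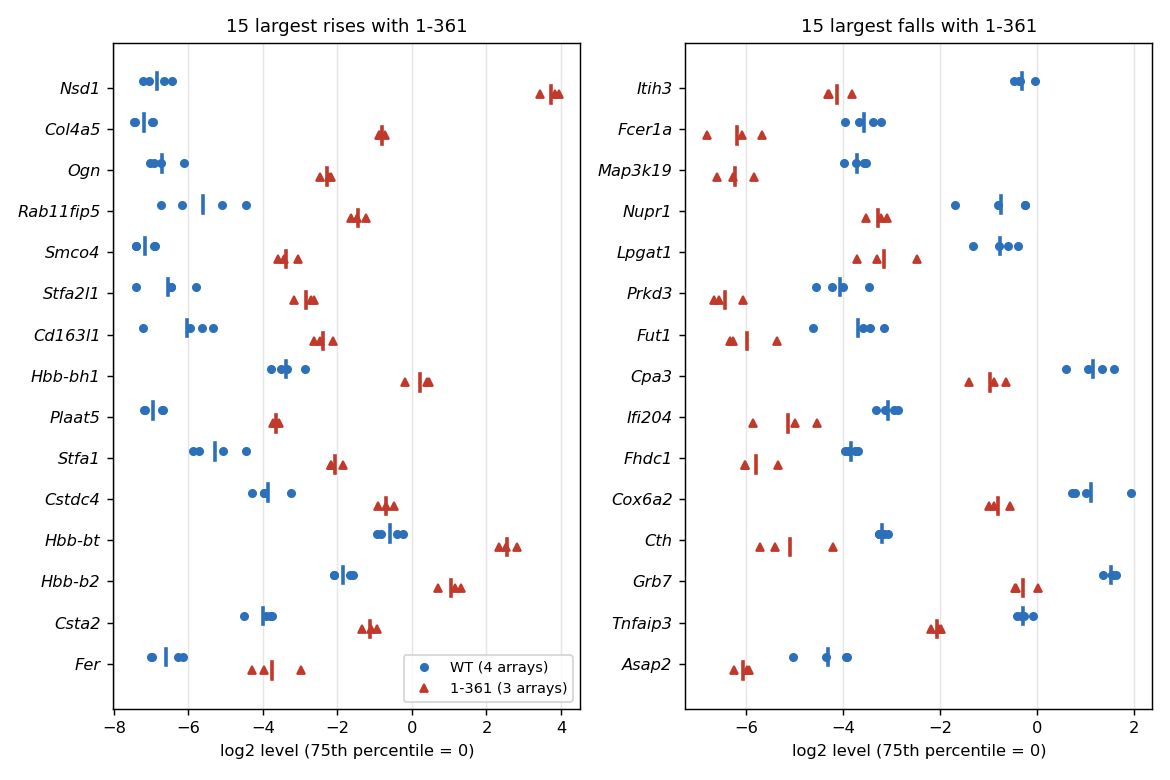
Levels on each array (x axis, log2 relative to the array's 75th percentile) of the 15 genes with the largest fitted rise and the 15 with the largest fitted fall among called genes with an ordinary symbol. Triangles are the 3 arrays of 1-361, circles the 4 of WT, and short bars the group means. The groups do not overlap for any of the 30, which the choice required and which held for all 109 called genes. Most rises start from WT values near background, below -5.

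The stefin A genes encode small cystatin-type inhibitors of cysteine proteases such as cathepsins, and lie side by side on mouse chromosome 16. All 6 measured genes of the cluster that carry the Stfa or Cstdc names rose. Over the list of 10 measured stefin and cystatin-like genes, 6 were called higher and 0 lower (background 0.4% higher), with a median of 2.71 (1.88 with the genes at background in WT entered at their bounds) against 0.04 over all genes. Stfa1 stood at -1.86, -2.17 and -2.16 with 1-361 and at -5.87, -5.08, -5.72 and -4.45 with WT, without overlap. It rose by 3.22 ± 0.35 (adjusted p = 9.56e-05), with 2 of 4 WT arrays well above background. Cstdc4, measured on every array of both groups, rose by 3.18 ± 0.29 (1.59e-05) and Csta2, a further gene of the cluster, by 2.86 ± 0.23 (4.44e-06). Stfa2l1 was at least 4.68-fold higher (8.04e-06) and Stfa2 at least 3.02-fold (0.00483). Stfa3 and Cstdc5, named here after their values were seen, were at least 4.50-fold higher and higher by 2.72 ± 0.46 (0.011 and 0.00744). The cystatins encoded elsewhere gave differences of -0.24 (Cstb), 0.05 (Cst7) and 0.24 (Cst3), and Csta3, which lies in the cluster, gave 0.96 with overlap (0.744), and limma called 0 of these 4, with unadjusted p-values of 0.112, 0.762, 0.114 and 0.12. The genes of the cluster are close copies of each other, so that their probes may share signal. Their probes span 36160118 to 36450752 on chromosome 16 (mm9), in 2 runs of neighbours among tested genes, Stfa2l1 with Cstdc4 and Csta2, Stfa1, Cstdc5, Stfa2 and Stfa3. The slide block ended the calls of Stfa2, Stfa3 and Cstdc5 (0.0904, 0.363 and 0.133), and normexp correction that of every stefin gene named. Without 1-361 replicate 1 the calls of Stfa3 and Cstdc5 were also lost, and without 1-361 replicate 2 that of Stfa3.

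Globin genes were the other group that rose. The embryonic beta-like globin gene Hbb-bh1 stood at 0.46, -0.18 and 0.41 with 1-361 and at -3.53, -3.36, -2.87 and -3.78 with WT, a rise of 3.61 ± 0.37 (adjusted p = 4.95e-05). The adult beta globin gene Hbb-bt stood at 2.53, 2.34 and 2.81 against -0.92, -0.41, -0.23 and -0.82, a rise of 3.16 ± 0.32 (4.95e-05). Both groups were well above background on every array and did not overlap. Hbb-b2 rose by 2.91 ± 0.32 (0.000125) and the alpha globin gene Hba-a2 by 1.84 ± 0.36 (0.0227). The beta globin genes are near-identical in parts, as are the alpha globin genes, so the split of signal between copies is uncertain. Hba-a2 lost its call without any 1 of 6 of the 7 arrays, WT replicate 3 being the exception, and with the slide block (0.0852).

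These globin genes belong to a list of 12 measured erythroid genes, of which 4 were called higher and 0 lower (0.4% and 0.315% of all genes), with a median of 1.79. On the 2 slides that held an array of each group the list's median was 1.41 and 0.61. The list's summed signal, each gene's processed signal taken relative to the 75th percentile, was 145 to 151 on the 1-361 arrays and 33.7 to 78.3 on the WT arrays. Such sums, here and below, run over all markers on the array, here 18, on the linear scale, so the brightest genes weigh most. Here that was Hba-a2, at 6.68, 6.75 and 6.68 with 1-361 and at 4.21, 4.83, 5.77 and 4.63 with WT. The defining erythroid genes Alas2, Ahsp, Slc4a1 and Car2, and the embryonic Hba-x, were not well above background on any of the 7 arrays. In such bulk samples more cells of a type and more RNA per cell cannot be told apart.

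Other marker lists moved in part, and their share in the results above was not tested. Of 11 measured megakaryocyte and platelet genes 2 rose (0.4% of all genes), among them the platelet chemokine gene Pf4 by 1.16 ± 0.20 (adjusted p = 0.00869). The list's summed signal was 96.0 to 117 against 52.8 to 70.3, and bright Pf4, at 5.73 to 6.02 against 4.29 to 4.93, weighs heavily in it. Of 8 measured T cell genes 2 rose (0.4% of all genes), the neighbouring CD3 chain genes Cd3d (0.63 ± 0.11, 0.00863) and Cd3g (1.99 ± 0.39, 0.0227), while Cd2, Cd247, Cd8a, Thy1, Trat1 and Zap70 were dim on all 7 arrays. The summed T cell signal was 11.8 to 15.1 against 12.1 to 15.8, so it overlapped. Gzmc, a granzyme gene, rose by 2.43 ± 0.36 (0.00232) as 1 of 4 measured natural killer and cytotoxic genes (0.4% of all genes rose), whose sum was 49.0 to 113 against 13.1 to 43.0, with Ncr1, Klrb1c, Klrk1, Klrd1, Gzma and Tbx21 dim on all 7. The natural killer list's median was 0.76, but it was 1.81 and -0.16 on the 2 slides that held an array of each group. The high-affinity IgG receptor gene Fcgr1 fell by 1.05 ± 0.21 (0.0236) as 1 of 7 measured macrophage genes (0.315% of all genes fell), whose sums overlapped, with Cd14, Marco and Mrc1 dim on all 7. The macrophage list as a whole did not fall. Its median was 0.41, with 5 of 7 genes above 0 and 3 with an unadjusted limma p under 0.05. On the 2 slides that held an array of each group that median was 0.43 and -0.52. Of the measured neutrophil, eosinophil, B cell, dendritic cell and stromal or epithelial markers (3, 3, 3, 5 and 2 genes) limma called 0, and 1, 2, 0, 1 and 1 had an unadjusted p under 0.05. The 3 measured eosinophil genes Epx, Prg2 and Ear6 had differences of 1.69, 2.17 and 1.36 (adjusted p = 0.321, 0.37 and 0.699), with medians of 2.40 and 1.66 on the 2 slides that held an array of each group. Their list's summed signal was 1.85 to 3.48 against 0.373 to 1.76, without overlap, with Ccr3, Ear1, Ear2 and Prg3 dim on all 7 arrays. The sums did not overlap for the dendritic cell list either, at 50.7 to 57.4 against 47.7 to 50.1 (median 0.25, with H2-Aa, H2-Ab1, Cd209a and Xcr1 dim on all 7), or for the stromal and epithelial list, at 6.83 to 7.18 against 4.68 to 6.37 (median 0.21, with 9 of 13 genes dim on all 7). The neutrophil and B cell sums overlapped. The slide block ended the calls of Pf4, Cd3d, Cd3g, Gzmc and Fcgr1 (0.0987 to 0.281). Leaving out 1-361 replicate 1 ended those of Pf4, Cd3d, Cd3g and Fcgr1, and Cd3g also lost its call without 1-361 replicate 2 or 3 or WT replicate 4, and Fcgr1 without 1-361 replicate 3 or WT replicate 1, 3 or 4.

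Mast cell genes did not move 1 way. Fcer1a, the IgE-binding alpha chain of the high-affinity IgE receptor, stood at -6.09, -6.81 and -5.67 with 1-361 and at -3.68, -3.39, -3.23 and -3.97 with WT. No 1-361 array was well above background and every WT array was, so the gene was at least 2.31-fold lower (adjusted p = 0.000125). The mast cell carboxypeptidase gene Cpa3 stood at -0.64, -0.88 and -1.40 against 0.60, 1.60, 1.35 and 1.05, a fall of 2.12 ± 0.35 on the log2 scale (0.00628). The chymase gene Mcpt4 stood at 0.44, -0.19 and 0.08 against -2.20, -1.33, -1.44 and -1.36, a rise of 1.69 ± 0.34 (0.0293). None of these pairs of groups overlapped. Over the 11 measured mast cell and basophil genes 1 rose and 2 fell (0.4% and 0.315% of all genes), the median was -0.35, and the summed signal of 24.4 to 55.3 overlapped the 18.3 to 44.0 of WT. Ms4a2, the beta chain of the same receptor, was dim on all 7 arrays. Fcer1g, the signalling chain that the IgE receptor shares with Fc gamma receptors, was singled out after its values were seen. It stood at 3.72, 3.57 and 3.49 against 0.83, 1.06, 1.11 and 1.11, a rise of 2.57 ± 0.20 (3.27e-06), so the alpha and the signalling chain of 1 receptor changed in opposite directions. Cpa3 lost its call without 1-361 replicate 3 and with the slide block (0.249), and Mcpt4 lost it without any 1 array and with the slide block (0.133).

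Rela itself was not called. Its 1 probe stood at 4.73, 4.82 and 4.80 with 1-361 and at 4.75, 4.68, 4.84 and 4.85 with WT, a difference of 0.01 ± 0.10 (adjusted p = 0.996). Whether the plasmids' transcripts carry the probe's sequence is not known, so the value does not check the constructs. Of the other subunits, Relb stood at -0.34, -0.56 and -0.11 against 0.41, 0.04, 0.22 and 0.24. Its arrays did not overlap, but the difference of -0.56 ± 0.21 was not called (0.493), and its other probes, measured on all 7 arrays, gave -0.56 and 0.50. Nfkb1 and Nfkb2, which encode the precursors of p50 and p52, differed by -0.10 ± 0.20 and -0.21 ± 0.19, with overlap. Over 24 measured subunit and activating kinase genes, the IKK complex and the adaptors of TNF and Toll-like receptors among them, limma called 0, 2 had an unadjusted p under 0.05, and differences ran from -0.56 to 0.30. Their median of -0.08 stands beside 0.04 over all genes, and 1 of 24, Relb, had arrays without overlap (background 10.4%).

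The negative regulators included 2 called genes of 19 measured, both lower (background 0.315% lower). Tnfaip3 stood at -1.98, -2.02 and -2.19 with 1-361 and at -0.27, -0.42, -0.34 and -0.09 with WT, a fall of 1.78 ± 0.24 on the log2 scale (adjusted p = 0.000812). Nfkbia stood at 4.01, 3.73 and 4.33 against 5.09, 4.84, 5.16 and 5.04, a fall of 1.01 ± 0.22 (0.0442). In neither gene did an array of 1 group reach the other group. Nfkbie, the gene of IkB epsilon, stood at 0.66, 1.02 and 1.07 against 1.50, 1.50, 1.37 and 1.40, also without overlap, and its difference of -0.53 ± 0.16 was not called (0.308). Nfkbib, the gene of IkB beta, differed by 0.02 ± 0.22, Traf1 by -0.28 ± 0.23 and Commd1 by -0.35 ± 0.16. The median over the 19 genes was -0.11, with 15 below 0. On the 2 slides that held an array of each group, the differences were -1.74 and -1.85 for Tnfaip3 and -1.36 and -0.83 for Nfkbia. With the slide as a block Tnfaip3 reached an adjusted p of 0.0514 and Nfkbia of 0.665, and Nfkbia lost its call without any 1 array except 1-361 replicate 3.

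**Figure D2:**
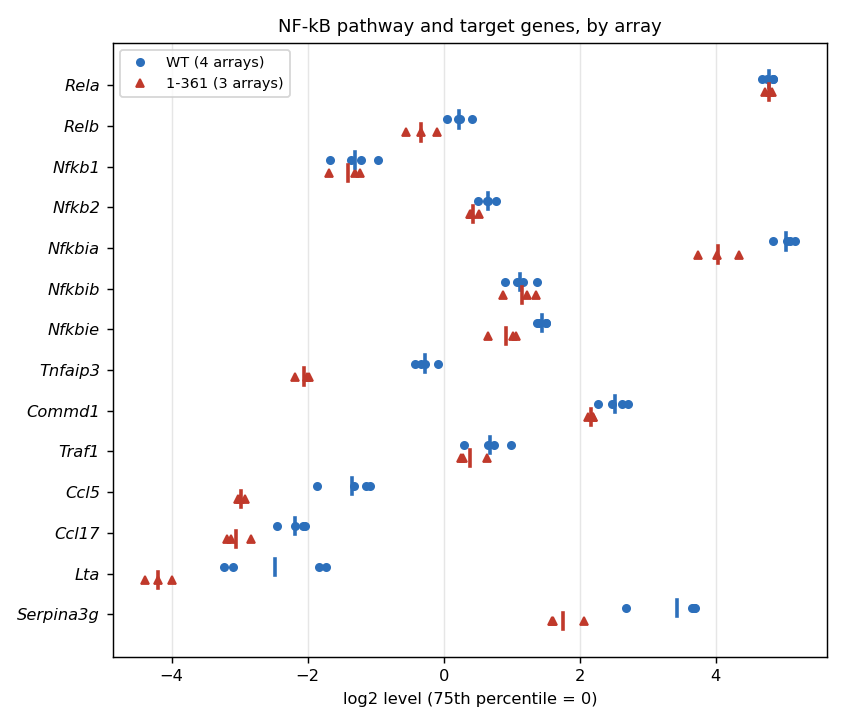
Levels on each array (x axis, log2 relative to the array's 75th percentile) of NF-kB subunit, inhibitor and target genes, with triangles for the 3 arrays of 1-361, circles for the 4 of WT and short bars for the means. Rela, Nfkb1, Nfkb2, Nfkbib and Traf1 overlap between the groups, while all 1-361 arrays lie below all WT arrays for Tnfaip3, Nfkbia, Nfkbie, Relb, Commd1, Ccl5, Ccl17, Lta and Serpina3g. Of these, Nfkbie, Relb and Commd1 were not called. The genes drawn were picked, and over all genes tested the groups did not overlap for 10.4%.

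Among NF-kB target genes that encode cytokines and chemokines, 3 of 15 measured fell and 0 rose (0.315% and 0.4% of all genes), with a median of -0.45 (-0.57 and -0.55 on the 2 shared slides). Ccl5, a chemokine that attracts T cells and monocytes, stood at -3.03, -2.92 and -3.0 with 1-361 and at -1.31, -1.14, -1.08 and -1.86 with WT, a fall of 1.63 ± 0.30 (adjusted p = 0.0121). Ccl17, a ligand of the receptor CCR4, fell by 0.87 ± 0.14 (0.00665). Lta, the gene of lymphotoxin alpha, stood at -4.21, -4.39 and -3.99 against -1.84, -1.73, -3.24 and -3.10, with 1 of 3 arrays of 1-361 well above background, and fell by 1.72 ± 0.36 (0.038). The WT arrays of Lta fell into a higher and a lower pair, and the lower pair still lay above every 1-361 array. Over the 26 measured target genes of surface proteins, enzymes and survival factors limma called 0, 4 had an unadjusted p under 0.05, and the median was -0.02. The slide block ended the calls of Ccl5, Ccl17 and Lta (0.135, 0.133 and 0.594), as did leaving out single 1-361 arrays, any for Ccl5 and Lta and replicate 3 for Ccl17. Lta also lost its call without WT replicate 1 or 2. In the fit of the 7 arrays alone Ccl17 and Lta were not called (0.0888 and 0.211), and Ccl5 was (0.0147).

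RefSeq promoter windows (assembly GRCm38.p6), from 250 bases before to 50 bases after each start site, were searched on both strands for a strict form of the kappa B element that RelA dimers bind, GGG, any 2 bases and then TTTCC. It occurred in 1.63% of 32851 promoters and in 1.65% of the 12271 promoters of tested genes. Of the 52 listed promoters of genes called lower, 3 held it (5.77%), 1 each of Nfkbia, Tnfaip3 and Serpina3g, and of the 40 of genes called higher 0 held it. With the kappa B consensus, which overlaps the first motif where the base after GGG is A or G, the shares were 5.17% for tested genes, 5.77% for lower genes, with the same 3 genes, and 10% for higher genes. A match is a description of the sequence and not a measured binding site. The 250 upstream bases of those 3 are shown because they belong to the lower genes with a match, in capitals where either motif matched. They are written on the gene's own strand, and lie on the minus strand at chr12:55492648-55492897 (Nfkbia) and chr10:19015411-19015660 (Tnfaip3) and on the plus strand at chr12:104235897-104236146 (Serpina3g).
Nfkbia: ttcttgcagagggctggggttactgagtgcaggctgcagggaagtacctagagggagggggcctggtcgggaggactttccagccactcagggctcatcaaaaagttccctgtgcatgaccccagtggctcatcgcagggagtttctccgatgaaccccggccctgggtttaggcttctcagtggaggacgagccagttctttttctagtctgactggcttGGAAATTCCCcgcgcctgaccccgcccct
Tnfaip3: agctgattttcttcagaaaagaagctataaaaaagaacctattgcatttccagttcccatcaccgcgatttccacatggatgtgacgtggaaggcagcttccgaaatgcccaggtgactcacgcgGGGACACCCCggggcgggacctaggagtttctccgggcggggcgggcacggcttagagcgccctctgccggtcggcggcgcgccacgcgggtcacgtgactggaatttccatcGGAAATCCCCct
Serpina3g: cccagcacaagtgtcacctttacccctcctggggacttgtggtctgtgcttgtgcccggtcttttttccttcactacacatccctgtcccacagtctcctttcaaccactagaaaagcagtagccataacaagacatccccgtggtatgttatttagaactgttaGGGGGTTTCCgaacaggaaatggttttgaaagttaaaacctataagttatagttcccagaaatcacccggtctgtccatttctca

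Serpina3g encodes a serine protease inhibitor and was named after its values were seen. It stood at 1.60, 2.06 and 1.59 with 1-361 and at 3.67, 3.70, 3.65 and 2.68 with WT, without overlap, and fell by 1.68 ± 0.31 (limma adjusted p = 0.0147; 0.0866 with the slide block). The call was also lost without 1-361 replicate 1 or 3 or WT replicate 1 or 2.

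The integrated stress response, through the factor ATF4, induces genes of amino acid supply and tRNA charging. Of its 43 measured genes 4 fell and 0 rose (background 0.315% lower), 38 lay below 0 against 6601 of all 15254 genes, and the median was -0.28. Nupr1, a small stress-induced chromatin protein gene, stood at -3.21, -3.53 and -3.09 with 1-361 and at -0.24, -0.80, -0.25 and -1.70 with WT, a fall of 2.53 ± 0.28 (adjusted p = 0.000133). Cth, the gene of the cysteine-making enzyme cystathionine gamma-lyase, fell by 1.91 ± 0.30 (0.00334; measured above background on 1 of 3 arrays of 1-361), and its second probe was dim on all 1-361 arrays and well above background on all WT arrays. Atf5, a transcription factor gene of this response, fell by 0.94 ± 0.18 (0.0153), and Eprs, a tRNA synthetase gene, by 0.62 ± 0.12 (0.02). On the 2 shared slides the list's median was -0.63 and -0.21. Without scaling it was -0.51, where the median of all genes had moved to -0.19. Atf5, Eprs and Cth lost their calls with the slide block (0.42, 0.228 and 0.0904), and Atf5 and Eprs also without 1-361 replicate 1 or 2 or WT replicate 3, Eprs further without 1-361 replicate 3 or WT replicate 1 or 2.

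Other programmes showed small shifts with 0 genes called by limma in either direction. An unadjusted p under 0.05 was found for 7 interferon-stimulated genes, 4 transcription factor genes, 3 STAT5 and Bcr-Abl output genes, 3 integrin genes, 1 gene each of glycolysis and of cholesterol synthesis, and 0 of the other lists of this paragraph that had no call. Glycolysis and hypoxia genes had a median of 0.24 with 26 of 30 above 0, but it was 0.64 on 1 shared slide and -0.37 on the other, and 0.07 after quantile normalization. Cell cycle and replication genes had a median of -0.12 with 34 of 40 below 0, and it was -0.28 and 0.21 on those slides. Interferon-stimulated genes had a median of -0.19 over 43 genes (-0.31 and -0.08). The medians were 0.01 for the unfolded protein response, 0.02 for cholesterol and fatty acid synthesis, 0.02 for p53 targets, 0.03 for the BCL2 family and caspases, -0.08 for STAT5 and Bcr-Abl output genes, 0.05 for haematopoietic transcription factors and 0.07 for integrins.

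**Figure D3:**
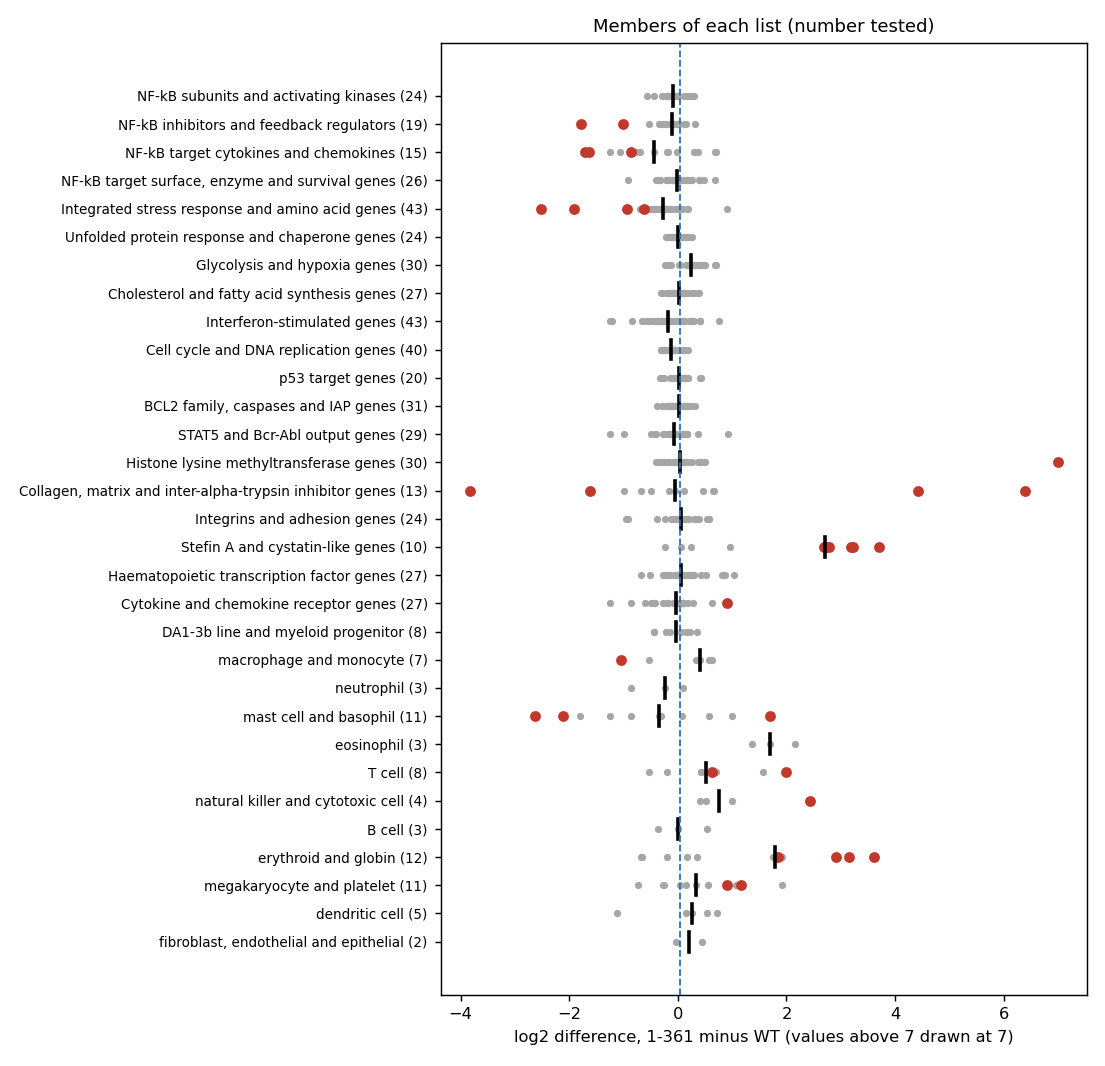
Log2 difference between 1-361 and WT (x axis) for each measured member of the gene lists and cell type marker lists, with the number measured in parentheses. Red points are called genes, grey points genes that were not called, black bars list medians, and the dashed line the median of all genes (0.04). The stefin list (median 2.71) and the erythroid list (1.79) lie to the right, and the called genes of the NF-kB feedback, cytokine and stress response lists lie to the left.

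Itih3 had the largest fall among called genes measured on every array. It encodes a heavy chain that inter-alpha-trypsin inhibitor passes to hyaluronan in the extracellular matrix. It stood at -4.30, -4.30 and -3.80 with 1-361 and at -0.37, -0.47, -0.34 and -0.03 with WT, a fall of 3.83 ± 0.28 (adjusted p = 1.48e-06). Its neighbour on chromosome 14, Itih4, stood at -1.99, -1.94 and -1.87 against -0.33, -0.40, -0.33 and -0.17, a fall of 1.62 ± 0.13 (3.27e-06). The probes lie at 31721835 to 31721894 and 31714970 to 31715029 (mm9). Both genes were measured on all 7 arrays without overlap, and normexp correction ended the call of Itih4. A second Itih4 probe was dim on all 7 arrays. With Col4a5 and Ogn they made up the 4 called of 13 measured collagen, matrix and inhibitor genes, 2 higher and 2 lower (0.715% of all genes were called).

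The remaining large falls had varied roles. Lpgat1, a lysophospholipid acyltransferase gene, stood at -3.29, -3.72 and -2.47 against -0.39, -0.59, -1.32 and -0.78, a fall of 2.39 ± 0.35 (adjusted p = 0.00191), with -1.83 for another of its probes and the last one dim on all 1-361 arrays. Grb7, an adaptor gene of receptor tyrosine kinases, fell by 1.81 ± 0.17 (2.19e-05) and Cox6a2, a muscle-type cytochrome oxidase subunit gene, by 1.92 ± 0.31 (0.00483). The kinase gene Map3k19 was at least 2.10-fold lower (3.7e-06), and both its probes were well above background on all WT arrays and dim on all 1-361 arrays. The protein kinase D gene Prkd3 was at least 1.64-fold lower (0.00021), with its other 2 probes dim on all 7 arrays. Also dim on every 1-361 array were the fucosyltransferase gene Fut1 (at least 2.11-fold lower, 0.0318), the interferon-inducible DNA sensor gene Ifi204 (3.14-fold, 0.0246), Fhdc1 (1.92-fold, 0.043) and Asap2 (1.38-fold, 0.0318; 2 of 4 WT arrays well above background). Leaving out 1 array ended the calls of these last 4 in 5 or more of 7 cases, as did the slide block (0.128 to 0.369). Lpgat1 and Cox6a2 lost theirs with the block alone (0.0987 and 0.0685). The second probe of Fhdc1 was dim on all 7 arrays, and that of Ifi204 was well above background on 1 WT array only.

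Against the other forms of p65, 1-361 differed in 156 genes from D361E (1.02%), in 96 from 362-549 (0.629%) and in 1701 from both fragments together (11.2%). These 3 contrasts and that with WT share the 1-361 arrays. Called against each of the other 4 groups in 1 direction were 24 genes (0.157%), 21 higher and 3 lower in 1-361. Without 1-361 replicate 1 or 2 the count was 14 and 12, and 8 with the slide block. The 21 included Nsd1, Col4a5, Rab11fip5, Smco4 and Ogn, picked by their smallest fitted difference from the other groups, which is not a measured size at background. Nsd1, Col4a5, Smco4, Ogn and Plaat5 were not well above background on any array of the other 4 groups. Fcer1g and Mcpt4 were also among the 21, with smallest differences of 2.46 and 1.69.

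The 3 lower genes were Lpgat1, Tmem37 and Blzf1. Tmem37, a calcium channel gamma-like subunit gene, stood at 0.84, 0.95 and 0.93 with 1-361 and at 1.92, 1.89, 1.77 and 2.04 with WT, a fall of 1.00 ± 0.11 (limma adjusted p = 7.68e-05). Its means were 1.94 ± 0.11 (SD, n = 4) in D361E, 1.54 ± 0.04 (n = 3) in 362-549 and 2.11 ± 0.04 (n = 3) with both fragments, so 1-361 lay below every other group. Blzf1, the gene of a Golgi protein, differed from WT by -0.69 ± 0.12 (0.00962) and lost that call with the slide block (0.322) and without 1-361 replicate 1.

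The grouped changes did not all set 1-361 apart. Stfa1 averaged -2.06 ± 0.18 (SD, n = 3) in 1-361, -2.44 ± 0.51 (n = 4) in D361E and -2.11 ± 0.19 (n = 3) in 362-549, and 1-361 was not called against either (limma adjusted p = 0.92 and 1). With both fragments Stfa1 was not well above background on any array, and 1-361 was called higher (8.14e-07). Hbb-bt averaged 4.87 ± 0.36 (n = 3) in 362-549, above the 2.56 ± 0.24 of 1-361 (0.00287). In D361E Hbb-bt averaged 1.78 ± 0.73 (n = 4), and 1-361 was not called against that group (0.467). Nor was 1-361 called against D361E for Hbb-b2 (0.741), Hba-a2 or Gzmc (0.518), but it was for Hbb-bh1 (0.015). Tnfaip3 was lower in 1-361 than in D361E, by 1.23 (0.0172), and was not called against 362-549 (difference 0.14, 1) or both fragments (-0.44, 0.26). For Nfkbia the difference from D361E of -0.89 was not called (0.0773), nor were those from 362-549 (0.48, 0.933) and from both fragments (-0.05, 0.9). Ccl5 was lower in 1-361 than in D361E, by 1.69 (0.00868), and was not called against 362-549 (-1.28, 0.121) or both fragments (-0.0067, 0.991). Nupr1 was lower than in D361E and 362-549, by 2.17 and 2.86 (0.000824 and 0.000119), but was not called against both fragments (0.07, 0.902). Itih3 was called higher in 1-361 than in 362-549 (0.00127) and than with both fragments (0.000648), groups in which it was not well above background on any array. Map3k19 was not well above background on any array of D361E, 362-549 or both fragments either, so only WT had a measured level. Grb7 averaged -0.29 in 1-361, 0.01 in D361E, -0.11 in 362-549 and -0.15 with both fragments, against 1.52 in WT. For Grb7, 1-361 was called against WT only.

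**Figure D4:**
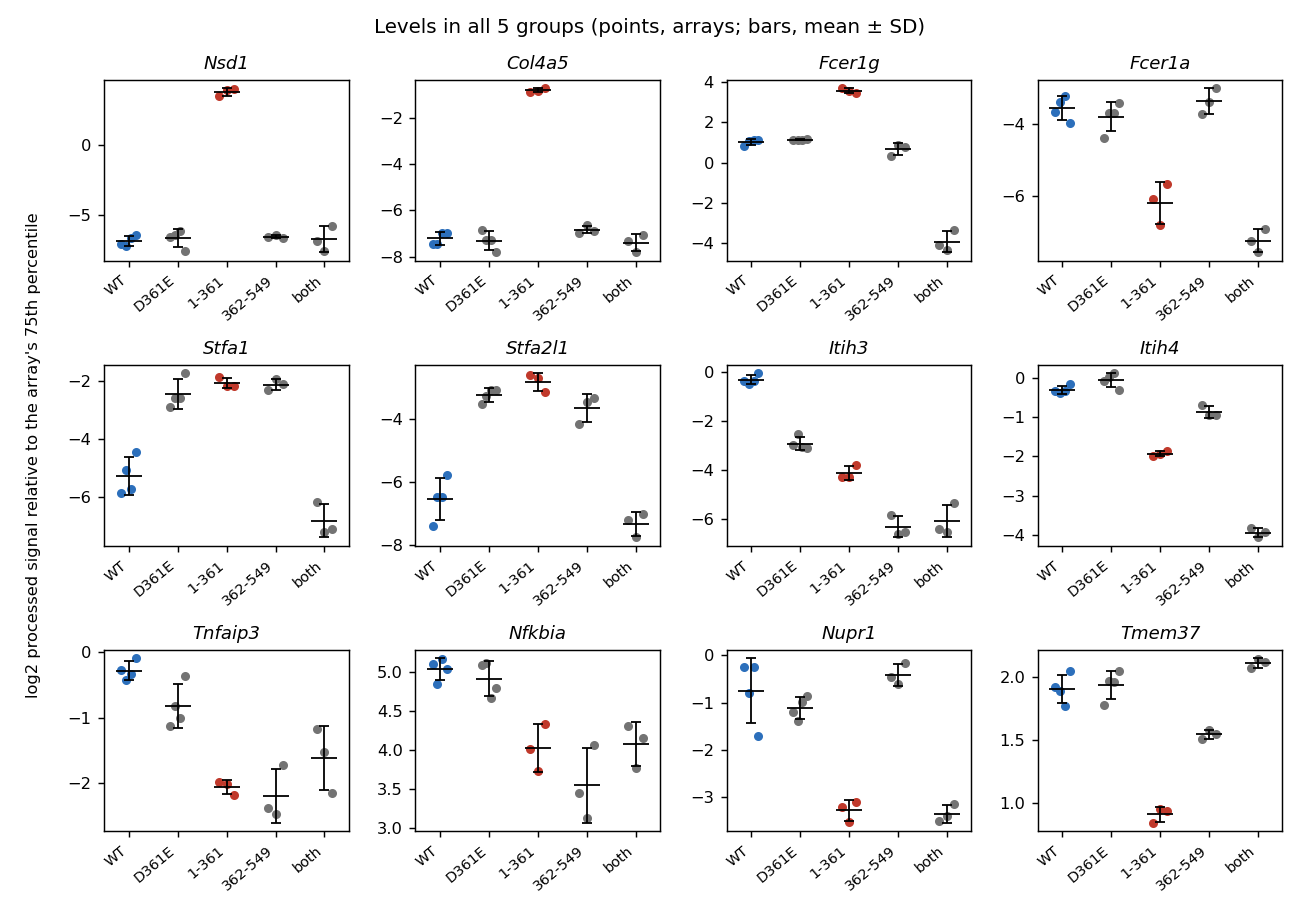
Levels of 12 named genes (y axis, log2 relative to the array's 75th percentile) in the 5 groups, where both stands for 1-361+362-549. Points are arrays, and bars are means with SD (n = 4 for WT and D361E, n = 3 for the others). Nsd1, Col4a5, Fcer1g and Tmem37 set 1-361 apart from all 4 other groups, whereas Stfa1 and Stfa2l1 lie well above their WT levels in D361E and 362-549 too.

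Among the 51 called genes given with values here, 30 kept the call without each of the 7 arrays in turn and 23 kept it with the slide as a block. Nsd1, Hbb-bh1, Hbb-bt, Hbb-b2, Itih3, Nupr1, Grb7, Tmem37 and Fcer1g, 9 in all, kept it in every alternative in which they were tested. The fit of the 7 arrays alone, with 5 residual degrees of freedom in place of 12, ended the calls of 14, namely Nfkbia, Ccl17, Lta, Serpina3g, Cth, Eprs, Gzmc, Cd3d, Cd3g, Fcgr1, Hba-a2, Stfa2, Fut1 and Blzf1 (adjusted p 0.0555 to 0.211). Normexp correction ended 37 of the 51 calls, those of bright genes such as Nfkbia, Pf4 and Atf5 among them, and the cause was not tested. Beside those 9, Lpgat1, Cox6a2, Tnfaip3, Gzmc and Hba-a2 kept their calls with it.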

How the data were processed

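RNA of 7 arrays (3 of 1-361, 4 of WT) was compared within a model over all 17. The deposited spot files give linear intensity. Per the file headers, Agilent Feature Extraction 10.7.3.1 (also named in the submitters' processing notes) subtracted background, and probe coordinates are on mm9. Processed signals of the 43020 spots that were not controls were turned to log2, and each array's 75th percentile was subtracted. A probe was kept if well above background on all arrays of 1 or more groups (19769 of 39429). Symbols came through RefSeq (GRCm38.p6), which named 27419 probes, and the brightest probe stood for a gene. Differences were tested with limma 3.58.1 in R 4.3.3 (group means, 12 residual degrees of freedom, Benjamini-Hochberg), after a run on simulated data. "At least N-fold" sets the bright group against the dim group's higher value of own signal and lowest signal well above background, per array.

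The members and lists were chosen with earlier results of these data known. Named were Rela, members of both NF-kB regulator lists, and the 15 largest fitted rises and falls among called genes whose groups do not overlap. Added were up to 4 called members of each other list and the 5 largest fitted of each direction called against all groups. Exceptions are marked, and a few genes are not reported here. Alternatives were quantile normalization, no scaling, normexp (offset 50), other probe filters, the mean of all probes, slide and title-round blocks, both groups alone and leaving out each array. The 6 slides each held several arrays.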

Additional observations from a re-analysis of the deposited data

Results flagged for a closer look

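In 2 of the 59 genes named, 1 of the 4 WT arrays lay far from the other WT arrays, by its gap to the nearest array divided by the group's range. Chance gives this in about 1 in 20 groups. For Mcpt4 the ratio was 0.882, and the array was WT replicate 1 at -2.20, the lowest. For Serpina3g it was 0.952, and the array was WT replicate 4 at 2.68, also the lowest and still above every 1-361 array.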

How the results depend on the processing

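The count of 109 genes was 31 with normexp correction, 61 among probes well above background on all arrays, 39 with the slide block, 206 with the round of the title number as a replicate block, and 62 to 106 without single arrays. For the 24 genes that set 1-361 apart from all 4 other groups the counts were 14, 4, 12, 14, 8 and 43 (no scaling, normexp, all-array filter, no filter, slide block, replicate block) and 12 to 22 without single arrays. The cause was not tested, except that the all-array filter tests fewer genes (13660). The title rounds are taken from the numbers in the sample titles, and the main model did not pair arrays by them. Deviations of arrays of 1 round correlated at -0.03, 0.38 and 0.40. Pairs from different rounds ran from -0.30 to 0.43, the highest being 1-361 replicate 1 with WT replicate 4 and the next 0.05. Arrays of 1 round may thus deviate together, which the main model ignores. No called named gene changed sign in any alternative. Of the genes not called, Rela gave -0.026 with quantile normalization and -0.23 without scaling, and Nfkbib -0.21 without scaling and -0.011 with all probes averaged. Without single arrays the differences ran from -0.027 to 0.033 for Rela, from -0.082 to 0.16 for Nfkbib and from -0.22 to 0.041 for Nfkb1. Genes near background have only bounds.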
